A study of Enchytraeus crypticus with 9 samples.

Results

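Worms of the soil species Enchytraeus crypticus that had received ultraviolet (UV) radiation were compared with worms that had not, with the 2 UV doses taken as a single group. The comparison held 6 UV arrays (3 of UV Dose 1 and 3 of UV Dose 2) and 3 Control arrays. Its members were the gene probes that the scanner software marked as positive and significant over background on all 9 arrays, which were 27935 of the 43750 gene probes (63.9%). Of these, 79 had an outlier flag on at least 1 array and were left out, so that 27856 probes were tested. No measured value of the groups entered this choice other than the presence of signal. The requirement was hardest to meet on Control replicate 2, where 29844 probes were marked this way, against 35684 to 39849 on the other arrays.

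Every sample was RNA from the whole bodies of 40 adults with a developed clitellum, kept for 5 days in ISO reconstituted water. Control animals lived under standard laboratory light, and the irradiated animals were given 7500 J/m2 (UV Dose 1) or 8100 J/m2 (UV Dose 2) in all. Each group had 3 replicate pools, and each pool was labelled with Cy3 and hybridised alone to 1 array of a custom Agilent design. The source description of the 8100 J/m2 samples reads dose 1, in conflict with their titles and treatment, and the group was taken from the titles. RNA was pooled over whole animals, so fewer cells of a type and less RNA per cell cannot be told apart. The files name no genes, hence markers of the adult body could not be examined and the transcripts are described by their contig or sequencing-read identifiers.

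UV radiation is absorbed by DNA, where it joins neighbouring pyrimidine bases, and it also gives rise to reactive oxygen species. Animal cells meet such damage with nucleotide excision repair, with a halt of the cell cycle and with antioxidant enzymes. Enchytraeids are small, pale annelids of the litter and soil, and they are used as test organisms in soil toxicology. Since no probe could be assigned to a gene, none of these pathways was counted here.

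Expression levels are normalized log2 intensities, on which a difference of 1 is a 2-fold change. The number of probes well above background varied more among the Control arrays than among the UV arrays. Between 21285 and 31912 gene probes were well above background on the Control arrays and between 26108 and 29942 on the UV arrays. Their means were 26295 in Control and 28130 in UV (exact two-sided permutation test of the difference of means over 84 splits of the 9 arrays, p = 0.452). The difference in spread was not tested. The mean log2 signal of 8 linear-range spike-in transcripts was 13.20 ± 0.22 (SD, n = 3) in Control and 13.10 ± 0.26 (SD, n = 6) in UV, and the groups overlapped (exact permutation test, p = 0.619). The median normalized level was 5.69, 5.92 and 5.75 on the Control arrays and between 5.56 and 5.72 on the UV arrays, 0.15 lower in UV (exact permutation test, p = 0.0476, and 0.143 after Benjamini-Hochberg adjustment over these 3 comparisons, where the smallest p that 84 splits allow is 0.0238). Control replicates 1 and 3 each lay on a slide without UV arrays, Control replicate 2 shared a slide with UV Dose 1 replicates 2 and 3, and the other 4 UV arrays lay together on the last of the 4 slides.

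Between UV and Control worms 2388 probes, or 8.57% of those tested, differed at an adjusted p under 0.05 (limma, 6 against 3 arrays, Benjamini-Hochberg over all 27856). Of these, 689 were over-expressed in UV (2.47% of the tested probes) and 1699 were under-expressed (6.10%), so that 71.1% of the changes were decreases. At an unadjusted p under 0.05 there were 6425 probes (23.1%). The median change over all tested probes was -0.03 on the log2 scale. The plot of change against level shows both sets over the whole range of levels, with the most extreme changes below 0.

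**Figure D1:**
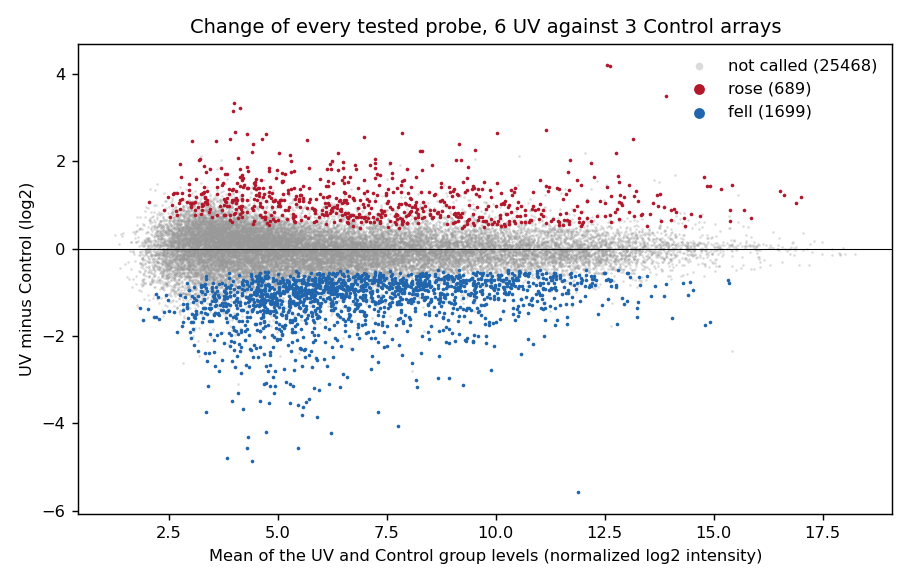
Fitted UV minus Control change (log2) of each tested probe against the mean of its UV and Control group levels (normalized log2 intensity), with 689 over-expressed probes in red, 1699 under-expressed probes in blue and the others in grey. Decreases reached -5.58 and increases 4.19.

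The division between increases and decreases depended on how the arrays were scaled to each other. Increases made up 28.9% of the changes after SVCD normalization (a method that centres conditions on genes found not to vary), 24.0% without normalization and 28.6% after scaling to the spike-in transcripts. It was 38.5% after cyclic loess, 41.9% after Quantile normalization, 45.7% after scaling to the 75th percentile and 51.3% after Median normalization, while MedianCD normalization gave 9.99%. MedianCD normalization moved the median change of all probes to -0.25 and Median normalization moved it to 0.11. No probe that was called under both SVCD and another of these scalings changed its direction. Such a reversal was hardly possible, because the smallest change called under SVCD was 1.39-fold and the scalings moved the median change by less. Under SVCD and all 7 other scalings together, 694 probes were called in a single direction, 199 as increases and 495 as decreases. Spike-in scaling set most of this limit, because it called only 723 probes, of which 719 were shared with SVCD. Each of the other scalings shared between 1705 and 2143 probes with SVCD.

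Single arrays also moved the division. Without Control replicate 1 there were 741 increases and 756 decreases, and without UV Dose 2 replicate 2 there were 347 and 2034. Without Control replicate 2 there were fewer calls, 411 and 1149, but the division changed little (26.3% increases, against 28.9% with all arrays). Of the 2388 probes, 906 (37.9%) stayed called in their direction whichever of the 9 arrays was left out. The probes that passed every scaling and every omission of an array numbered 596, with 184 increases and 412 decreases. Their median fold change was 3.11, against 1.87 for the other 1792. Large changes stay called more easily, so this difference in fold was built into the selection. The bar plot of calls by setting shows that every setting retained both increases and decreases.

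**Figure D2:**
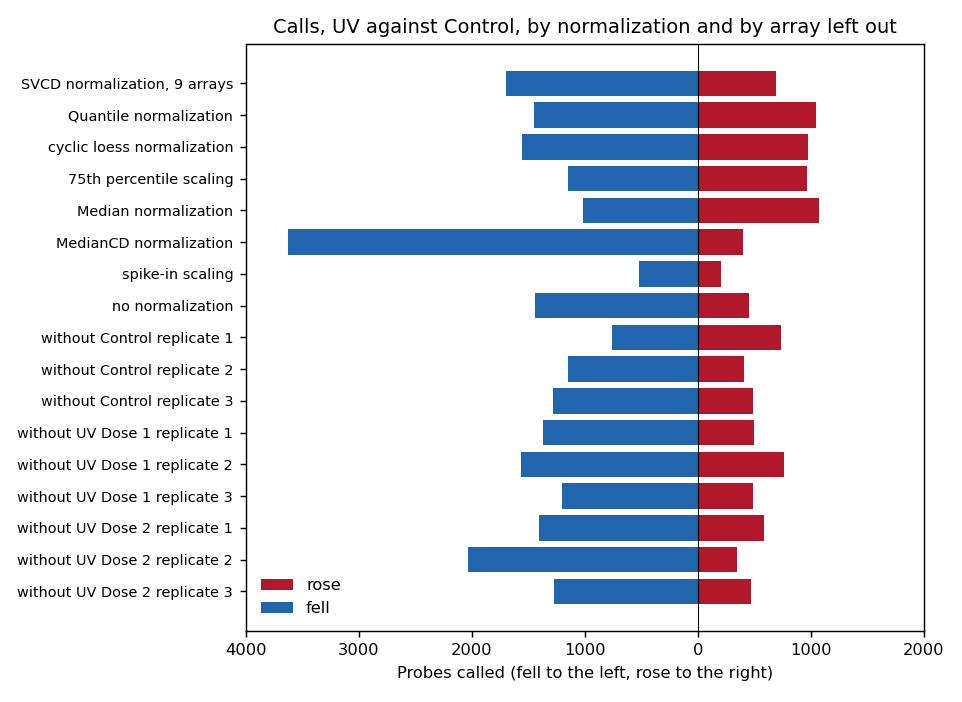
Number of probes called UV against Control (adjusted p under 0.05) that fell (blue, to the left) and rose (red, to the right), under 8 ways of scaling the 9 arrays and, with SVCD normalization, without each array in turn. The numbers of decreases ran from 516 with spike-in scaling to 3631 with MedianCD normalization.

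The changes were mostly moderate in size. The median absolute fold change of the called probes was 2.05, with quartiles at 1.73 and 2.60, and the smallest that passed the test was 1.39. Increases and decreases had similar medians, of 2.02 and 2.06. A change above 2-fold was found in 354 increases (51.4%) and 911 decreases (53.6%), and a change above 8-fold in 6 increases and 39 decreases. For 35 of the decreases no UV array was well above background, so that the fold is only bounded, and for 5 of the increases no Control array was. With these at their bounds the median fold of all called probes was 2.03.

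In most called probes the 2 groups were completely apart. The 6 UV arrays all lay above the 3 Control arrays in 681 of the 689 increases, and all below them in 1658 of the 1699 decreases. Over all tested probes the groups did not overlap in 15.5%, with UV above in 5.54% and below in 9.93%, and since the test used the same arrays these counts describe the called probes without adding evidence. The median SD of the called probes over the UV arrays was 0.23 for the increases and 0.24 for the decreases, against 0.31 over all tested probes. A low spread within groups makes a call easier, so this difference too comes with the choice of the probes.

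Called probes were less frequent among dim probes. When the tested probes were divided by their mean level into 5 bins of equal size, 4.04% of the lowest bin was called, then 7.25%, 9.89%, 11.4% and, in the highest bin, 10.3%. Increases became more frequent with level at every step, from 1.04% to 3.97%, whereas decreases were most frequent in the second-highest bin (8.02%) and came to 6.30% in the highest. Among the 279 brightest probes (the top percent) there were 17 increases and 4 decreases, in contrast to the excess of decreases in each of the 5 bins. The spread within groups moved with level: the median SD over the UV arrays was 0.49 in the lowest bin and 0.19 in the highest, and over the Control arrays 0.51 and 0.22. Its part in the number of calls was not tested.

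**Figure D3:**
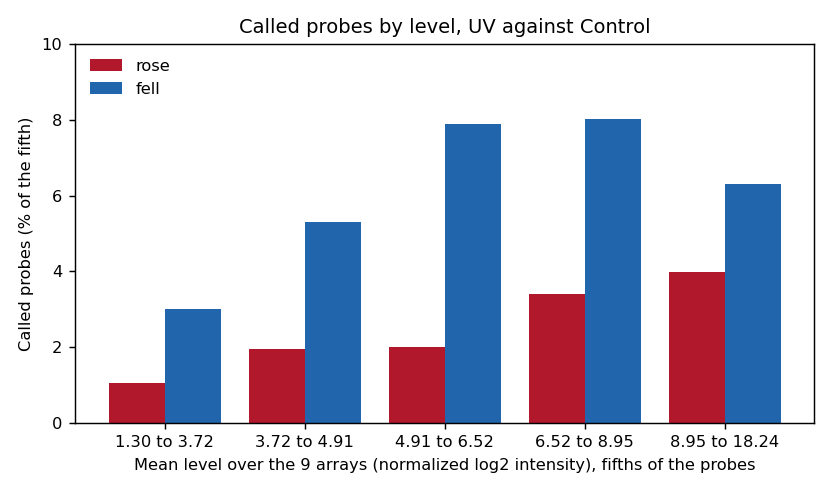
Called probes that rose (red) and fell (blue) as a percentage of the tested probes in each of 5 bins of equal size, ordered by mean normalized log2 level over the 9 arrays. Increases ran from 1.04% to 3.97% and decreases peaked at 8.02% in the second-highest bin.

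Although decreases outnumbered increases, the increases took up the larger part of the signal in UV worms. The 689 over-expressed probes held between 2.49% and 3.49% of the summed linear signal of the tested probes on the Control arrays (3.15% ± 0.571, SD, n = 3) and between 6.43% and 7.33% on the UV arrays (6.83% ± 0.361, SD, n = 6). The 1699 under-expressed probes held between 4.43% and 5.06% in Control (4.73% ± 0.318) and between 2.13% and 2.51% in UV (2.37% ± 0.132). A scale factor for an array leaves these shares as they are, but the probes were chosen on the same contrast, and bright probes weigh most in a sum.

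**Figure D4:**
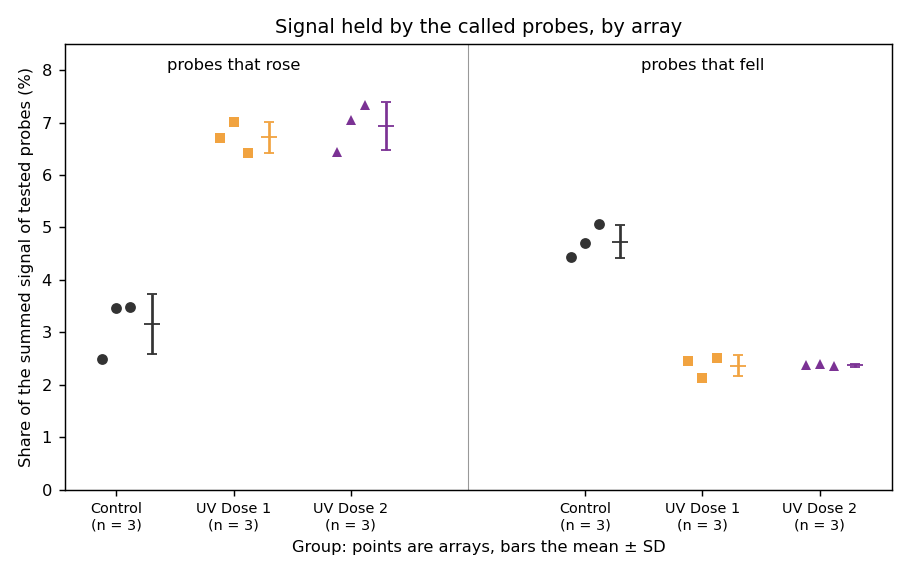
Share of the summed linear signal of all tested probes (%) held by the over-expressed probes (left) and the under-expressed probes (right), 1 point per array, with the mean ± SD of each group of 3 arrays. The over-expressed probes reached 6.43% to 7.33% on the UV arrays, against 2.49% to 3.49% on the Control arrays.

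The largest increase was that of the read GYUW2K402HSXGV. Its level was 10.99, 10.34 and 10.07 on the Control arrays, and on the UV arrays the lowest was 14.05, the median 14.77 and the highest 15.02. No UV array came within 3.07 of a Control array, and the fitted change was 4.19 ± 0.26 (SE), an 18.2-fold increase (limma, adjusted p = 3.31e-05). A second read, GYUW2K402HFWBH, followed it closely, with 11.09, 10.51 and 10.04 in Control and a lowest, median and highest of 14.10, 14.83 and 15.08 in UV. The levels of both probes were within 0.17 of each other on each of the 9 arrays, and since probe sequences were not used here it was not determined whether they measure a single transcript. The fitted change of the second was 4.17 ± 0.27 (SE), an 18.0-fold increase.

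The contig contig09612 had Control levels of 12.75, 11.93 and 11.85. Its UV levels ran from 15.24 through a median of 15.66 to 15.94, an 11.1-fold increase with a change of 3.48 ± 0.23 (SE, adjusted p = 4.21e-05). These 3 probes were well above background on every array, and their UV levels were above 14 throughout.

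A further 3 increases were also well above background on every array. For contig09936 the Control levels were 9.62, 9.88 and 9.94 and the UV levels ran from 12.17 to 12.88 with a median of 12.55, a 6.51-fold increase (adjusted p = 5.00e-05). For contig24468 they were 8.35, 8.92 and 8.86 in Control and from 11.20 to 11.60 with a median of 11.33 in UV, a 6.28-fold increase. The centred profiles of these 2 contigs differed by at most 0.36 on any array. In contig22428 the Control arrays lay within 6.47 to 6.58 and the UV arrays within 8.34 to 9.65, a 6.25-fold increase whose 3 UV Dose 2 levels (9.55, 9.64 and 9.65) were all above the 3 of UV Dose 1.

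The other 6 of the 12 largest increases started near background. The lowest level marked well above background was 3.03, 3.70 and 2.07 on Control replicates 1, 2 and 3, and 2.29 to 2.81 on the UV arrays. The mark thus asked for a higher level on Control replicates 1 and 2 than on any UV array. The probes contig03157, GYUW2K401DSH4W, contig01426, GYUW2K401AM53B and contig12474 were well above background on 1 of the 3 Control arrays and contig18767 on 2, whereas each was so on all 6 UV arrays. Of these, GYUW2K401DSH4W had 3.03, 1.98 and 2.63 in Control and a lowest, median and highest of 5.37, 5.71 and 6.28 in UV, a 9.22-fold increase (change 3.21 ± 0.28 SE, adjusted p = 0.000173). In contig01426 the Control levels were 2.22, 2.13 and 2.89 and the UV levels ran from 4.93 to 6.17, an 8.79-fold increase. The level of contig12474 in Control was 1.30 in replicate 1 and 3.87 and 3.77 in the others, so that its change of 2.63 ± 0.49 (SE) rested on a wide Control group, and the smallest gap between the groups was 1.30. Normexp background correction, which adds an offset of 50 to the intensities, reduced the fold of all 6 by more than 1.5 times. The change of GYUW2K401DSH4W became 0.70, and those of contig03157 (0.88, adjusted p = 0.0912) and contig18767 (0.92, adjusted p = 0.0870) were then not called.

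The largest decrease was that of contig19694, with Control levels of 14.50, 14.88 and 14.63. Its UV levels ran from 8.55 through a median of 8.81 to 10.01, and the nearest UV array was 4.49 below the nearest Control array. The fitted change was -5.58 ± 0.34 (SE), a 47.7-fold decrease (adjusted p = 3.26e-05), and the probe remained well above background on all 6 UV arrays. It was the largest change in either direction, and without any 1 array it stayed between -5.75 and -5.46.

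The next decreases included 3 with no UV array well above background, whose folds are lower bounds on the processed signal. The bound sets each UV array at its own level or at the lowest level well above background on that array, whichever was higher. GYUW2K401C5ESY had 6.67, 6.97 and 6.92 in Control and 1.46 to 2.44 in UV, and was at least 19.2-fold lower in UV (adjusted p = 2.46e-05). GYUW2K401BGVCK had 6.84, 6.41 and 6.52 in Control and 1.31 to 2.57 in UV, at least 16.0-fold lower. In contig16792 the levels were 6.44, 6.10 and 6.15 in Control and 0.34 to 1.94 in UV, at least 12.5-fold lower. With normexp background correction and its offset the changes of these 3 were -1.56, -1.19 and -1.12, or 2.94-fold, 2.29-fold and 2.18-fold, below those bounds, and all 3 stayed called. On none of the 3 did a UV array come closer than 3.85 to a Control array.

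The other decreases among the 12 largest kept a measurable level on some or all UV arrays. The read GYUW2K402GFQEG had 10.08, 9.54 and 9.73 in Control and a lowest, median and highest of 5.42, 5.64 and 6.29 in UV, a 16.6-fold decrease (change -4.05 ± 0.23 SE, adjusted p = 2.96e-05). The read GYUW2K401CLOKO had 7.99, 7.72 and 7.75 in Control and 3.71 to 4.45 in UV, a 14.4-fold decrease. For contig19386 the levels were 9.37, 9.11 and 9.06 in Control and 4.83 to 6.30 in UV, a 13.5-fold decrease. All 6 UV arrays measured these 3 probes well above background. The contigs contig12422 and contig14888 were well above background on 4 UV arrays each and contig16478 on 1, with fitted changes of -4.57, -4.20 and -4.32. Of the 12 largest decreases, 11 had their fold reduced by more than 1.5 times with normexp background correction, to between 2.18-fold and 7.87-fold, and contig19694 (43.7-fold) did not. All 12 stayed called.

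A pair of these decreases, contig02735 and contig02734, carried consecutive contig numbers. Their Control levels were 8.37, 8.47 and 8.17 for the former and 7.17, 7.79 and 7.44 for the latter, and in UV they ran from 3.54 to 5.28 and from 2.59 to 4.60. The decreases were 18.5-fold (adjusted p = 0.000154) and 14.0-fold (adjusted p = 0.000509). Over all tested contigs that had a tested contig with an adjoining number, 9.05% had such a neighbour that fell. Among the 713 contigs of this kind that fell, 94 (13.2%) had one, and among the 265 that rose, 9 (3.40%) had a neighbour that also rose, against 3.31% of all. Contig and read probes were called at similar rates, with 2.55% increases and 6.41% decreases among 14075 contigs, and 2.39% and 5.78% among 13781 reads.

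**Figure D5:**
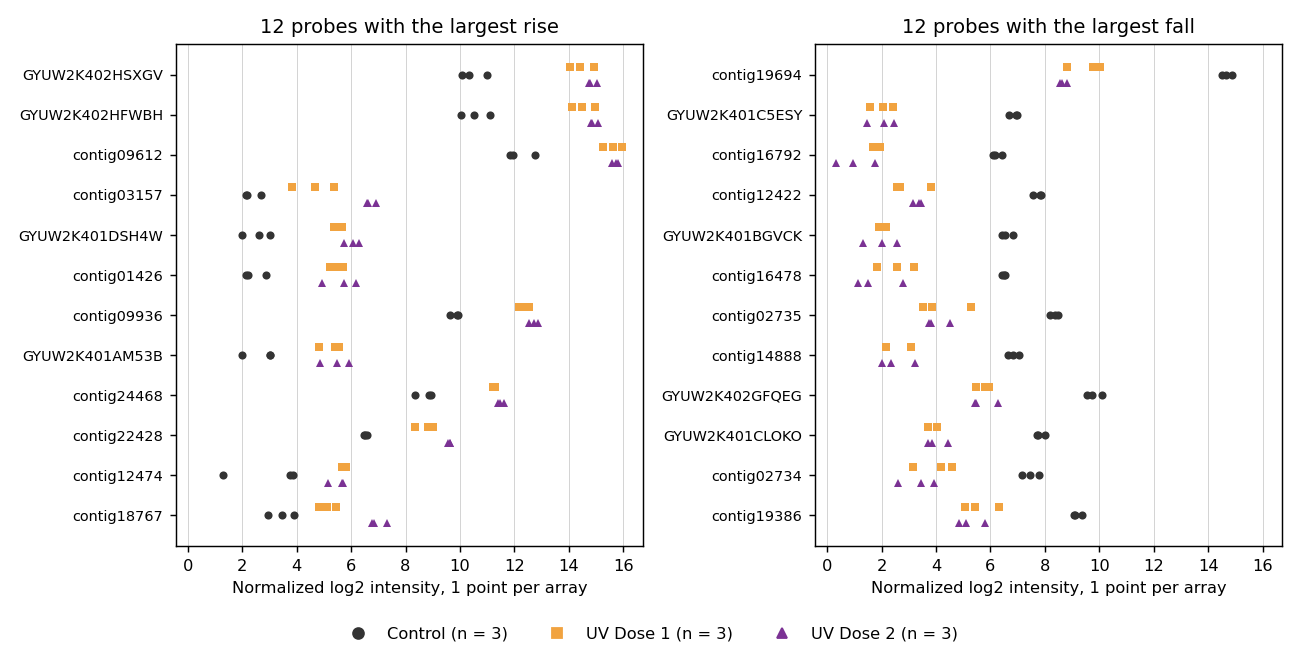
Normalized log2 level on each array for the 12 probes with the largest increases (left) and the 12 with the largest decreases (right), with Control as black circles, UV Dose 1 as orange squares and UV Dose 2 as purple triangles. In all 24 probes the 6 UV arrays lay on a single side of the 3 Control arrays, as the choice of these probes requires.

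Each dose was also set against Control on its own. These comparisons share the Control arrays with each other and with the pooled comparison, therefore their values are given side by side only. UV Dose 1 against Control gave 1464 called probes (5.26% of those tested) and UV Dose 2 against Control 1389 (4.99%), in a fit with 3 group means. The 689 increases had a median change of 0.93 at UV Dose 1 and of 1.08 at UV Dose 2, and the 1699 decreases had medians of -1.07 and -1.01. Among the 12 largest increases the fitted change ranged from 1.69 to 3.99 at UV Dose 1 and from 2.54 to 4.39 at UV Dose 2, and among the 12 largest decreases from -5.14 to -3.48 and from -6.01 to -3.81.

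The direct comparison of UV Dose 2 with UV Dose 1 called no probe (limma, 0.00% of those tested, with 989 probes or 3.55% at an unadjusted p under 0.05). Of the 2388 probes called in the pooled comparison, 81 (3.39%) had an unadjusted p under 0.05 between the doses, close to the share over all probes, and the lowest adjusted p among them was 0.408. A dose difference counts as residual spread in the pooled fit, so probes that differ between the doses were less easily called there. The median UV Dose 2 minus UV Dose 1 difference was 0.12 for the increases and 0.07 for the decreases, against 0.01 for all tested probes, and the larger absolute change was at UV Dose 2 in 527 increases (76.5%) and 585 decreases (34.4%), against 48.2% of all tested probes. UV Dose 2 lay wholly on 1 slide with UV Dose 1 replicate 1. A fit with slide as a block therefore sets that 1 UV Dose 1 array against the 3 UV Dose 2 arrays, too few to tell whether the doses differ.

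The 3 called probes with the largest fitted difference between the doses were contig03157, contig18767 and contig19981. In contig03157 the Control levels were 2.14, 2.18 and 2.71, the UV Dose 1 levels 4.68, 3.82 and 5.37 and the UV Dose 2 levels 6.90, 6.59 and 6.61, so that the doses did not overlap. The UV Dose 2 minus UV Dose 1 difference was 2.08, with an adjusted p of 0.432 in limma. In contig18767 the levels were 3.45, 2.94 and 3.90 in Control, 4.82, 5.12 and 5.43 at UV Dose 1 and 6.84, 7.32 and 6.78 at UV Dose 2, a difference of 1.86 (adjusted p = 0.408). In contig19981 they were 6.05, 6.52 and 6.29 in Control, 3.53, 5.78 and 2.64 at UV Dose 1 and 3.43, 2.29 and 1.59 at UV Dose 2, with overlapping doses and a single array, UV Dose 1 replicate 2, close to the Control level. The pooled change of contig19981, -3.07 ± 0.75 (SE, adjusted p = 0.0325), was no longer called without any one of 7 of the 9 arrays, with adjusted p up to 0.0939, while the change itself stayed between -3.15 and -2.75. The change of contig18767 was 2.78 without Control replicate 1 (adjusted p = 0.0549) and 2.37 without Control replicate 2 (adjusted p = 0.0794), against 2.62 with all arrays, and was not called in either case.

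Slide moved with the groups, because only the slide of Control replicate 2 held both kinds of worm. With slide as a fixed block, which leaves that 1 Control array against UV Dose 1 replicates 2 and 3, 207 probes were called (0.743%), of which 51 were increases and 156 decreases, and 120 were among the 2388. The random block for slide left 2101 called probes. Within that slide alone the median difference was 0.91 for the 689 increases and -1.03 for the 1699 decreases, against -0.07 for all tested probes. Every called probe differed there in the direction of the pooled change, as did 80.4% of all tested probes, although these 3 arrays were part of the fit. The 12 largest increases differed by 1.87 to 4.31 on that slide and the 12 largest decreases by -5.47 to -3.42, and 8 of each 12 were called with the fixed block.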

How the data were processed

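RNA from 9 pools of worms was measured on 1-colour arrays. Per the labels and file headers, the authors scanned the arrays with Agilent Feature Extraction 10.7.3.1, and the deposited intensities are its background-subtracted processed signals, not normalized between arrays. The deposited table of the series held the same intensities, within 0.497%, and the deposited flags marked probes above background. The 1417 control spots were left out. Log2 intensities were normalized by SVCD with the 3 labelled conditions, written anew after the methods, and fitted with limma 3.58.1 (R 4.3.3) as 6 UV against 3 Control arrays. Doses were compared in a fit with 3 group means. Probes were called at a Benjamini-Hochberg adjusted p under 0.05. In simulated arrays of 27856 probes, 36 of 100 changes of 2-fold and 78 of 100 of 4-fold were recovered. The simulation held no other changed probes and as many increases as decreases, unlike the data, so these shares need not hold for the comparison. Named were the 12 largest rises and falls among called probes whose groups did not overlap, and the 3 called probes that differed most between doses. The members and lists were chosen with earlier results of these data known. Gene lists were not examined, because the files name no genes. The labels number the replicates but do not say that equal numbers form pairs, and the main fit did not use the numbers. The correlation of same-numbered deviations between UV and Control was 0.21, 0.49 and 0.12 for UV Dose 1 and 0.56, 0.28 and 0.29 for UV Dose 2. Between the doses it was 0.09, 0.19 and 0.03. Values for arrays of unlike number are not given, so whether the numbers pair the arrays was not determined. The number of arrays limits the precision.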

Additional observations from a re-analysis of the deposited data

Results flagged for a closer look

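In contig12474, the level of UV Dose 2 replicate 1 was 5.17, while the nearest of the other 5 UV arrays was at 5.66. This gap, as a share of the range of the 6 UV arrays, was above Dixon's critical value for 6 samples. It was the only one of 30 sets of UV values examined, and chance alone gives about 1 in 20. All 6 UV arrays of contig12474 were above its Control levels.

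Among the 15778 gene probes that were not members and had no outlier flag, 14 (0.0887%) were well above background on all 6 UV arrays and on no Control array. The brightest of them was contig08877, with 1.49, 1.39 and 1.98 in Control and a lowest, median and highest of 4.68, 4.94 and 5.58 in UV, at least 4.26-fold higher in UV. These probes had failed the requirement of a significant signal on all 9 arrays, and they were not tested. On Control replicates 1 and 2 the mark asked for a higher level (at least 3.03 and 3.70) than on any UV array (at most 2.81).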

How the results depend on the processing

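The number of called probes, 2388, became 4034 after MedianCD normalization, 723 with spike-in scaling, 3919 with array weights and 207 with slide as a fixed block. Without single arrays it lay between 1497 and 2381, lowest without Control replicate 1. The balance, the mean of +1 for each increase and -1 for each decrease, was -0.42 and turned to 0.03 after Median normalization. It was -0.16 after Quantile normalization, -0.80 after MedianCD, -0.09 with 75th percentile scaling, -0.52 without normalization, -0.23 after cyclic loess, -0.52 with the deposited table, -0.26 among probes well above background on all arrays, -0.38 with the methods' t-test and -0.51 with slide as a fixed block, and lay between -0.71 and -0.01 without single arrays. The median change of all probes, -0.03, became 0.11 after Median normalization, -0.25 after MedianCD, 0.09 with 75th percentile scaling and 0.05 with spike-in scaling, and lay between -0.16 and 0.10 without single arrays. The lower array median in UV, -0.15, was no longer past the threshold in exact permutation tests (unadjusted) with 75th percentile scaling (-0.03, p = 0.643), spike-in scaling (-0.06, p = 0.881), no normalization (-0.16, p = 0.238), cyclic loess (-0.06, p = 0.0952) or probes well above background (-0.09, p = 0.119), and lay between -0.28 and -0.05 without single arrays, where 8 of 9 omissions lost it (p up to 0.429, without Control replicate 1). Leaving out any Control array leaves too few splits for p to fall under 0.05, so those omissions could not keep it. MedianCD kept the lower array median in UV (-0.37, exact permutation p = 0.0238), and Median and Quantile normalization set this difference to 0. The causes were not tested. With the replicate block, which pairs the arrays by number, 3020 probes were called with a balance of -0.36, and all 25 named probes stayed called. Of 712 recomputed changes of the named probes none changed direction and 24 lost their call, 9 of them with slide as a fixed block. Nearly all named probes were chosen on these same arrays for the size of their change, so the kept directions add little evidence. SVCD normalization with 2 conditions did not converge and gave no value. The filter to probes well above background left 12 of the named probes.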

Other observations

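In the opposite direction, 20 of the 15778 gene probes that were not members and had no outlier flag (0.127%) were well above background on all 3 Control arrays and on no UV array. The brightest was the read GYUW2K402ILYQW, chosen after its values were seen, with 7.42, 6.83 and 7.21 in Control and a lowest, median and highest of 0.15, 0.97 and 2.16 in UV, at least 23.7-fold lower in UV. The next were contig20694, at 5.94, 5.69 and 5.75 in Control and at most 2.91 in UV, and contig26299, at 5.65, 5.72 and 5.61 in Control and at most 2.24 in UV.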
